A study of Mus musculus with 54 samples.

Results

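The genes Pou5f1, Sox2, Sall4, Utf1, Fgf5, Otx2, Pou3f1 and Tcf15 mark cells that are pluripotent, that is, able to give rise to every tissue of the embryo. They were followed in mouse embryonic stem (ES) cells leaving that state. The 8 genes were chosen by name. All 8 were found in both deposited expression tables, among 38363 entries of the table of cells treated with retinoic acid (RA) and 39056 of the table of cells without LIF. LIF is a cytokine added to culture medium so that ES cells renew themselves.

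Every RA library came from 46C cells, an ES line of strain 129/Ola with GFP inserted at Sox1. These cells were kept for 1 day in serum-free N2B27 medium with LIF and the 2i inhibitors, and were then moved to N2B27 without LIF or inhibitors and with 2 µM RA. Wild-type (WT) cells (libraries WT-1 and WT-2) and cells with a 58 kb deletion at Haunt, a gene for a long noncoding RNA (58 kb KO, libraries KO-i and KO-j) were sampled at days 2 and 4, so each genotype has 2 libraries at each time. The RA table holds no library from before RA. The other table holds WT cells only. For days 0, 2 and 6 it gives only means made by the authors, over 3, 2 and 3 libraries. Day 0 is ES cells in serum with LIF, and the later days follow LIF withdrawal. The libraries behind these means come from the ES lines CJ7, JF4 and J1, and not every mean holds all of them. By title they are WTc and WTf at day 0, WTj and WTc at day 2, and WTf, WTj and WTc at day 6. Day 4 is a single library of CJ7. Mesendoderm (ME), neural progenitors (NPC) and neural stem cells (NSC) have a single library each. ME are cells with GFP in T that were sorted for GFP after 6 days without LIF. NPC are 46C cells sorted for the Sox1 reporter after 6 days in N2B27. NSC are such sorted cells grown on with EGF and FGF-2 to passage 15. The labels do not say whether replicate libraries were grown apart, so the p-values below measure the spread between these libraries, which may be technical.

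OCT4, the product of Pou5f1, and SOX2 bind DNA side by side at shared sites, and together they keep the gene network of pluripotent cells running, including their own genes. ES cells held with LIF and inhibitors resemble the naive epiblast of the blastocyst. As they leave that state they pass through a formative and then a primed epiblast state, in which OCT4 persists while OTX2, POU3F1 and FGF5 appear. RA is a signal that drives ES cells out of pluripotency, in part through nuclear receptors that bind near Pou5f1 itself.

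The bases before the start of 4 members are shown because Pou5f1, Sox2 and Utf1 fell together under RA in the results that follow, while Fgf5, a marker of primed epiblast, did not. Each run is the 250 bases before the start, 5′ to 3′ on the strand of the gene, from RefSeq on GRCm38.p6. Capitals mark matches, on either strand, to 4 short motifs: the POU octamer core (ATGCAAA), a SOX core (AACAAAG), a nuclear receptor half-site (AGGTCA) and a GC box core (GGGCGG). They lie at chr17:35505782-35506031, chr3:34649745-34649994, chr7:139943606-139943855 and chr5:98253934-98254183, all on the plus strand.
Pou5f1: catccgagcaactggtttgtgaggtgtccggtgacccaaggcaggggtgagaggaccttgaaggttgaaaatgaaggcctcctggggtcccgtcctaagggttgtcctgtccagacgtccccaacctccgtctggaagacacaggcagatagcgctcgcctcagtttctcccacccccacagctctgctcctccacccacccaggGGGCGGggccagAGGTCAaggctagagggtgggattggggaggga
Sox2: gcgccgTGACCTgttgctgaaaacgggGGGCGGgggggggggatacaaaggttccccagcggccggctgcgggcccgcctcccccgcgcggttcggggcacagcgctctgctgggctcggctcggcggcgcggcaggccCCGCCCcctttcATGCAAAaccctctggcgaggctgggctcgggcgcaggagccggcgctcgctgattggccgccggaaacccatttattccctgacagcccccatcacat
Utf1: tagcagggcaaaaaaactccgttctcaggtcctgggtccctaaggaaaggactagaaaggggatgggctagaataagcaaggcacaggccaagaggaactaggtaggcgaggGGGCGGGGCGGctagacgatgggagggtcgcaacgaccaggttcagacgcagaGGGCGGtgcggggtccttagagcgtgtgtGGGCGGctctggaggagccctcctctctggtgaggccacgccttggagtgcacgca
Fgf5: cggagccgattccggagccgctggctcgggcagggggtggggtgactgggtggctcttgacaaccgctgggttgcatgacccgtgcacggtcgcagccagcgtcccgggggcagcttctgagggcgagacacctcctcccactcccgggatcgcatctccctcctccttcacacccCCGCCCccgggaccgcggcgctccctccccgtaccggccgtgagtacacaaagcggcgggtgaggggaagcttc

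The Pou5f1 run held 1 half-site 33 bases before the start and 1 GC box 45 bases before it. The Sox2 run held 1 octamer core, 1 half-site and 2 GC boxes. The Utf1 run held 4 GC boxes, a pair of which overlap by a base, and the Fgf5 run held 1. Of all 32851 promoters of this length in the table, 4.13% held the octamer core, 5.03% the SOX core, 14.0% the half-site and 32.7% the GC box, so the GC box is common. These are matches of letters and not evidence of binding. The table gave promoters for 5 of the 8 members by symbol. A further start listed for Pou5f1 and the 4 listed for Otx2 held none of the 4 motifs. The levels of Pou5f1 below are listed for NM_001252452, and which of its listed starts that entry uses was not tested. The promoters of Sall4, Pou3f1 and Tcf15 were not used here.

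The deposited values were read as FPKM (read fragments scaled to transcript length and to the size of the library), so levels of different genes can be set side by side within a table. Depth, estimated from the steps between low values, was 9.05 to 16.4 M reads under RA and 27.8 to 40.6 M reads in those libraries of the other table that stand alone. Replicate libraries correlated at r = 0.973 to 0.984 across genes. The first principal component (61.3% of the variance) separated the days. Haunt, listed as Gm15055, stood at 128 and 142 FPKM in WT and at 1.13 and 0 in the knockout libraries KO-i and KO-j of day 2. At day 4 it stood at 31.8 and 40.6 FPKM in WT and at 3.08 and 0.447 in the knockout, so its level followed the labels.

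Under RA the core factors fell steeply between days 2 and 4. Of the 7 members that passed the filter (1 FPKM or more in 2 or more of the 8 libraries), 5 fell in WT and the same 5 fell in 58 kb KO: Pou5f1, Sox2, Utf1, Pou3f1 and Tcf15. Fgf5 rose in 58 kb KO, but it reached 1 FPKM only in day 4 libraries, so that call is not independent of the filter. Pou3f1 reached 1 FPKM only in day 2 libraries, so its fall is not independent of the filter either. Sall4 passed in neither genotype. Over all 15705 genes tested, 10.9% fell and 14.4% rose in WT, and 7.81% fell and 10.0% rose in 58 kb KO. A gene is said to rise or fall where limma's adjusted p on log2(FPKM + 1) was under 0.05. The median change over the 7 members was -2.60 in WT and -2.12 in 58 kb KO, against 0.04 in each over all genes. In these bulk samples, fewer cells of a type and less RNA per cell cannot be told apart.

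**Figure D1:**
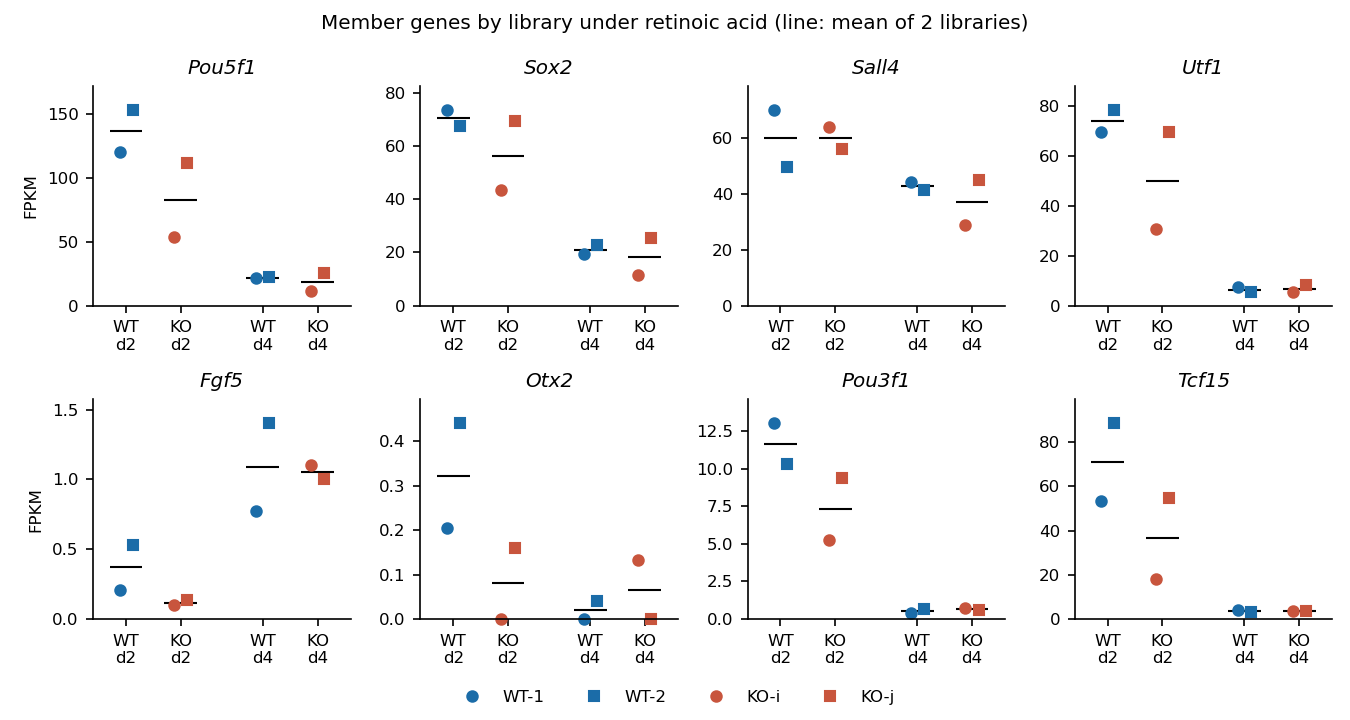
Level of each of the 8 members in FPKM (vertical axes from 0, one scale per gene) in WT (blue) and 58 kb KO (red) libraries at days 2 (d2) and 4 (d4) of RA; points are libraries and lines are means of 2. Pou5f1, Sox2, Utf1, Pou3f1 and Tcf15 are lower in every day 4 library than in every day 2 library, and KO-i lies below KO-j at day 2 in every panel but Sall4.

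Pou5f1 (NM_001252452, mm9 chr17:35645752-35647722) stood at 120 and 154 FPKM in WT-1 and WT-2 and at 53.6 and 111 in KO-i and KO-j on day 2. At day 4 it stood at 21.2 and 22.0 FPKM in WT and at 11.4 and 25.2 in the knockout. The days did not overlap, and KO-i was the lowest library at each day. The mean of WT fell from 137 ± 23.7 to 21.6 ± 0.556 FPKM (SD, n = 2), that is, to 15.8% of its day 2 level. On the log2 scale the change was -2.60 (SE 0.41, limma adjusted p = 0.00476) in WT and -2.12 (SE 0.41, adjusted p = 0.0156) in 58 kb KO. The call in the knockout was lost without the day 2 library of KO-j (-1.60, adjusted p = 0.0646) and without the day 4 library of KO-i (-1.58, adjusted p = 0.0609).

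Sox2 (NM_011443, mm9 chr3:34548927-34551382), the partner of OCT4 and later a factor of neural progenitors, stood at 73.9 and 67.8 FPKM in WT and at 43.6 and 69.4 in KO-i and KO-j on day 2. By day 4 it stood at 19.6 and 22.6 FPKM in WT and at 11.4 and 25.3 in the knockout. The days again did not overlap, and WT kept 29.8% of its day 2 level. The change was -1.70 (SE 0.34, limma adjusted p = 0.0116) in WT and -1.64 (SE 0.34, adjusted p = 0.0205) in 58 kb KO. The call in WT was lost when any 1 WT library was left out (adjusted p = 0.0549 to 0.0666), with the size at -1.60 to -1.80. In the knockout it was lost without the day 2 library of KO-j (-1.31, adjusted p = 0.0988) and without the day 4 library of KO-i (-1.09, adjusted p = 0.0556).

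Sall4 (NM_175303, mm9 chr2:168573832-168592701), a zinc finger factor that binds with OCT4 and is shared by ES cells and other early stem cells, had the smallest change in WT. It stood at 70.3 and 49.9 FPKM in WT and at 64.1 and 56.1 in KO-i and KO-j on day 2. Its day 4 values were 44.4 and 41.3 FPKM in WT and 29.0 and 45.0 in the knockout. Each day 4 library was below each day 2 library, but the change of -0.46 (SE 0.23) in WT and -0.71 (SE 0.23) in 58 kb KO did not pass (limma adjusted p = 0.178 and 0.0665). In WT its interval ran from -0.98 to 0.07. Without the day 4 library of KO-j the change in the knockout was -1.02 and passed (adjusted p = 0.0289).

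Utf1 (NM_009482, mm9 chr7:147129755-147131011) encodes a chromatin protein of pluripotent cells and is a classic target of OCT4 and SOX2. It stood at 69.7 and 78.7 FPKM in WT and at 30.6 and 69.5 in KO-i and KO-j on day 2. All 4 day 4 libraries lay between 5.26 and 8.09 FPKM. The change was -3.37 (SE 0.36, limma adjusted p = 0.00123) in WT and -2.62 (SE 0.36, adjusted p = 0.00625) in 58 kb KO. WT kept 8.54% of its day 2 level, a smaller share than Pou5f1 or Sox2 kept.

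Tcf15 (also called Paraxis, NM_009328, mm9 chr2:151969345-151974832), a basic helix-loop-helix factor of paraxial mesoderm, is expressed in ES cells that are about to leave the naive state. It stood at 53.6 and 88.7 FPKM in WT and at 18.3 and 54.9 in KO-i and KO-j on day 2, the widest ratio between libraries of 1 day among the members above 1 FPKM. The 4 day 4 libraries lay between 2.95 and 3.99 FPKM. Its change of -3.98 (SE 0.46, limma adjusted p = 0.00160) in WT was the largest of the 7 members, and that in 58 kb KO was -2.86 (SE 0.46, adjusted p = 0.00909).

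Pou3f1 (also called Oct6, NM_011141, mm9 chr4:124334889-124337899), a POU factor of primed epiblast and of neural precursors, was lower in level than the members above. It stood at 13.0 and 10.3 FPKM in WT and at 5.25 and 9.37 in KO-i and KO-j on day 2. Its range at day 4 was 0.423 to 0.717 FPKM. Only day 2 libraries reached the 1 FPKM of the filter, so Pou3f1 entered the test through the day at which it was higher. The change was -3.03 (SE 0.26, limma adjusted p = 0.000608) in WT and -2.29 (SE 0.26, adjusted p = 0.00339) in 58 kb KO.

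Fgf5 (NM_001277268, mm9 chr5:98683203-98706052), the growth factor that marks primed epiblast, was near the floor of detection. It stood at 0.211 and 0.534 FPKM in WT and at 0.101 and 0.133 in KO-i and KO-j on day 2. The day 4 values were 0.776 and 1.405 FPKM in WT and 1.10 and 1.01 in the knockout. All day 4 libraries were above all day 2 libraries. Only day 4 libraries reached the 1 FPKM of the filter, so Fgf5 entered the test through the day at which it was higher. The change was 0.60 (SE 0.24, limma adjusted p = 0.107) in WT and 0.88 (SE 0.24, adjusted p = 0.0437) in 58 kb KO, and adding 1 FPKM before the logarithm understates changes of so low a gene. The call in the knockout was lost when any 1 of the 8 libraries was left out (adjusted p = 0.0600 to 0.140).

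Otx2 (NM_144841, mm9 chr14:49277859-49282547), a homeobox factor that directs the move from naive to primed epiblast and later patterns the anterior brain, did not reach the filter. It stood at 0.204 and 0.441 FPKM in WT and at 0 and 0.161 in KO-i and KO-j on day 2. The values of day 4 were 0 and 0.0412 FPKM in WT and 0.133 and 0 in the knockout. These values overlap and were not tested. Fgf5 and Otx2 were thus near absent in RA-treated cells, while Pou3f1 and Tcf15 were present mainly at day 2.

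**Figure D2:**
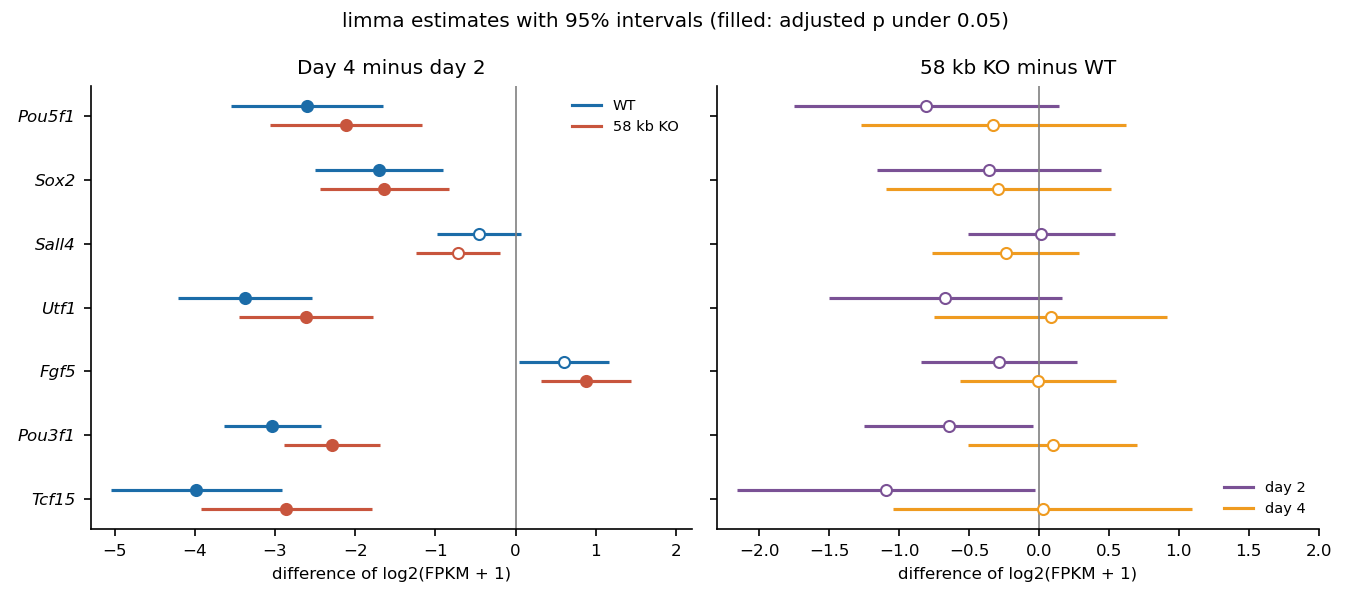
Estimated differences of log2(FPKM + 1) for the 7 members tested (points) with 95% intervals (lines); filled points have a limma adjusted p under 0.05. Between days (left) 5 members lie far below 0 in both genotypes, and between genotypes (right) no member passes at either day.

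Pou5f1 has an entry on its opposite strand. Gm19553 (mm9 chr17:35646022-35647496, minus strand) lies within its listed span, and the RA libraries were not made to mark strand. In them Gm19553 was listed at 47.9% to 69.4% of the FPKM of Pou5f1, between 6.18 and 86.5 FPKM, and it fell with it (-2.57, limma adjusted p = 0.00385 in WT). In the stranded libraries of the LIF and lineage table it was listed at 0 to 0.0636 FPKM, while Pou5f1 reached 997. Reads of the pair cannot be told apart in the RA libraries, and whether Pou5f1 is understated there was not tested.

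The deletion of the Haunt locus was compared with WT to find genes expressed differently in its absence. No member passed the test between genotypes at day 2 (limma adjusted p = 0.880 to 0.993), at day 4 (0.649 to 0.996) or in its change between days (0.901 to 0.999). Of all genes tested, 0.0255% passed at day 2, 0% at day 4 and 0% for the difference of the changes. At an unadjusted p under 0.05 there were 803, 2263 and 873 genes for these comparisons, with 2 members among them at day 2 and 0 at day 4. Haunt itself did not pass at day 4 (-3.93, limma adjusted p = 0.128), so a miss there does not show that a gene was alike in both genotypes.

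Over all 15705 genes at day 2, 6724 had a negative difference from WT, and the median was 0.04. Of the 7 members tested, 6 had a negative difference, with a median of -0.65. Both knockout libraries lay below both WT libraries in 4 of them, Pou5f1, Utf1, Fgf5 and Pou3f1, and 13.9% of all genes had that order. The intervals show how much the data leave room for. That of Pou5f1 was -1.75 to 0.14 around -0.81, that of Sox2 -1.16 to 0.45 around -0.36 and that of Tcf15 -2.16 to -0.03 around -1.09. At day 4 the median was -0.01, and both knockout libraries lay below both WT libraries in 0 of the members, against 21.7% of all genes.

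For Pou5f1, Sox2, Utf1, Pou3f1 and Tcf15 the day 2 difference from WT was more negative in KO-i than in KO-j. At day 2 KO-i was below KO-j for 6 of the 7 members tested, against 47.0% of all genes. KO-i was above KO-j for Sall4, and Fgf5, among the 6, was near the floor in each. The size of the gap varied, and KO-i is read against KO-j here. KO-i held 48.1% of the FPKM of KO-j for Pou5f1, 62.9% for Sox2, 44.0% for Utf1, 56.0% for Pou3f1 and 33.4% for Tcf15. Of the 7 members tested, 5 were lower in KO-i by at least 0.5 log2 units, with a median of -0.73, and 7.23% of all genes were that much lower. Without KO-i the difference from WT at day 2 was -0.28 for Pou5f1, -0.03 for Sox2, -0.09 for Utf1, -0.28 for Pou3f1 and -0.32 for Tcf15. Fgf5 was below WT in KO-j as well, at 0.133 FPKM against 0.211 and 0.534. Leaving out the lowest library shrinks such differences in any case. With 2 knockout libraries, neither can be called the atypical one.

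At day 4 KO-i was again well below KO-j, now for the 3 members that were still well expressed. It held 45.2% of the FPKM of KO-j for Pou5f1, 45.1% for Sox2 and 64.5% for Sall4. These were also the 3 of 7 members that were at least 0.5 log2 units lower, against 8.40% of all genes. Without it the differences from WT at day 4 turned from -0.33 to 0.21 for Pou5f1, from -0.29 to 0.25 for Sox2 and from -0.24 to 0.07 for Sall4. Utf1 came close to the 0.5 log2 units at day 4, with KO-i at 68.1% of the level of KO-j (-0.48 log2 units). Pou3f1 and Tcf15 were no longer lower in KO-i, which held 123% and 107% of the level of KO-j.

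**Figure D3:**
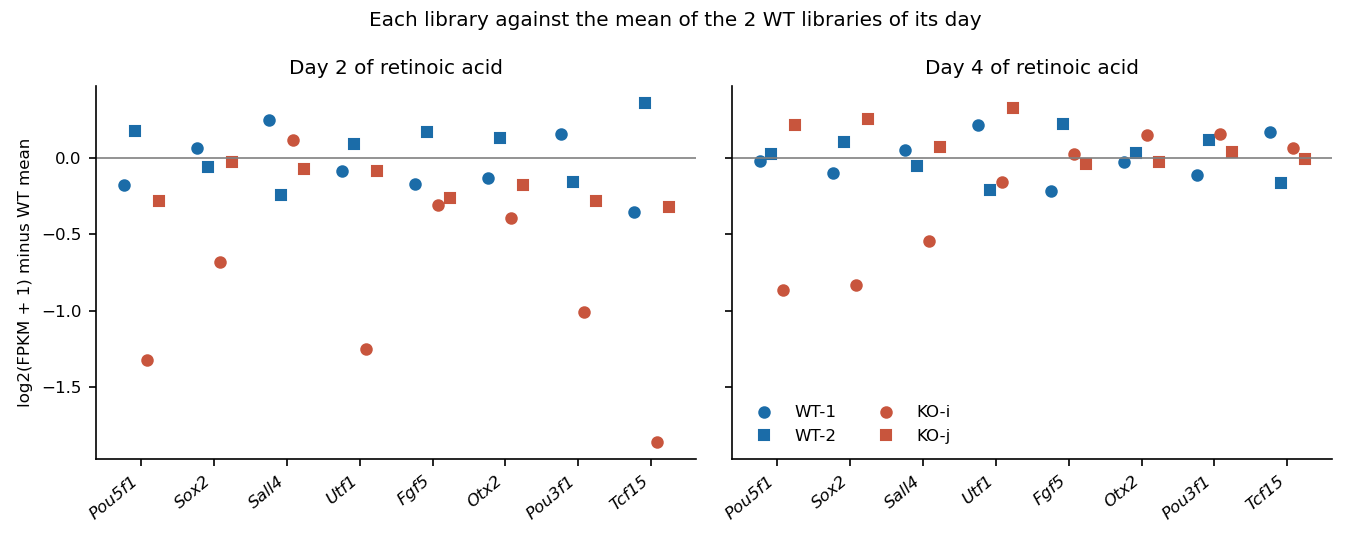
Each library's log2(FPKM + 1) minus the mean of the 2 WT libraries of its day, for the 8 members at day 2 (left) and day 4 (right) of RA. KO-i (red circles) is far below the other libraries for Pou5f1, Sox2, Utf1, Pou3f1 and Tcf15 at day 2 and for Pou5f1, Sox2 and Sall4 at day 4.

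Marker lists of other cells and states were read in the same libraries. The summed level of 9 naive ES cell markers, among them Nanog, Zfp42 and Esrrb, was 378 and 503 FPKM in WT at day 2, and on that day 190 in KO-i against 405 in KO-j. It was 77.9 to 121 FPKM at day 4, and 6 of the 9 fell in WT and 4 in 58 kb KO. The 7 extraembryonic endoderm markers, all detected, summed to 104 to 150 FPKM at day 2. At day 4 they summed to 945 and 938 FPKM in WT and to 514 and 534 in KO-i and KO-j. Of these 7, 6 rose in WT and 4 in 58 kb KO.

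The 6 trophoblast markers summed to 31.6 to 36.8 FPKM at day 2. At day 4 they summed to 194 and 313 FPKM in WT and to 75.5 and 118 in KO-i and KO-j. Of the 5 tested, 2 rose and 2 fell in each genotype. Those that rose were the keratins Krt8 and Krt18, which simple epithelia share. Krt8 went from 10.9 and 10.4 to 96.6 and 154 FPKM in WT and from 8.61 and 10.3 to 28.5 and 55.8 in KO-i and KO-j, and Krt18 changed by 3.43 in WT and by 1.98 in 58 kb KO (limma adjusted p = 0.000472 and 0.00598). The genotypes did not overlap at day 4 for either, but the differences of -1.59 for Krt8 and -1.20 for Krt18 did not pass (adjusted p = 0.165 and 0.173). Of the transcription factors on the list, Cdx2 stood at 0.104 to 2.58 FPKM over the 8 libraries and Elf5 at 0 to 0.128. Tfap2c stood higher, at 5.37 to 10.9 FPKM at day 2 and 0.510 to 1.75 at day 4. Eomes stood at 2.19 to 5.76 FPKM at day 2 and 0.516 to 1.47 at day 4.

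The 6 mesendoderm markers summed to 6.22 to 11.9 FPKM at day 2, and at day 4 to 18.2 and 25.9 in WT and 9.52 and 14.6 in KO-i and KO-j. Of the 3 tested, Foxa2 rose and Eomes fell in each genotype. Foxa2, also a gene of endoderm, went from 3.14 and 4.53 to 16.1 and 22.8 FPKM in WT (2.08, limma adjusted p = 0.00213), and changed by 1.58 in 58 kb KO (adjusted p = 0.0100). T stayed under 1 FPKM in every RA library, and Mesp1 was listed at 0 in all 4 day 4 libraries.

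The 6 fibroblast and feeder markers summed to 12.4 to 16.3 FPKM at day 2 and to 22.5 to 40.8 at day 4, highest in KO-i. Of the 5 tested, Col1a2, Col3a1 and Fbn1 rose in each genotype, and 1, Thy1, fell in WT. Thy1 went there from 6.78 and 5.81 to 2.27 and 0.942 FPKM. Col3a1 reached 1 FPKM only in day 4 libraries, so it entered the test through that day. Lum was listed at 0 in every RA library. Fbn1, a microfibril protein, made up most of the day 4 sum, and at that day stood at 17.1 and 15.2 FPKM in WT, at 33.7 in KO-i and at 19.0 in KO-j. The 8 neural progenitor markers summed to 35.4 to 51.1 FPKM at day 2 and 53.4 to 71.5 at day 4. Of the 6 tested, 3 rose and 1 fell in WT, and 4 rose and 1 fell in 58 kb KO. The 6 paraxial mesoderm markers summed to 29.3 to 43.2 FPKM at day 2 and 48.4 to 54.7 at day 4, and the 7 forebrain and midbrain markers to 9.29 to 15.6 and 11.2 to 13.6.

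The depth of KO-i was the lowest at day 2 (9.05 M reads) but not at day 4 (14.9 M reads). Genes of chromosome 1 had a median shift of 0.31 (day 2) and 0.29 (day 4) in KO-i against WT, but no member lies there, and on the members' chromosomes that median was at most 0.14. The part of these markers and values in the members' levels was not tested.

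Genes that work beside the members were read from 3 lists, without the members themselves. Of 14 partners and direct targets of OCT4 and SOX2 that were tested, 11 fell and 0 rose in WT, and 11 fell and 0 rose in 58 kb KO, with medians of -1.96 and -1.76. The 4 with the smallest p in WT were Dppa4, Fbxo15, Zfp42 and Fgf4. Dppa4, a nuclear protein of pluripotent cells, went from 50.8 and 50.4 to 12.3 and 10.2 FPKM in WT (-2.08, limma adjusted p = 0.000302). In KO-i and KO-j it went from 44.7 and 49.6 to 18.6 and 17.1 FPKM (-1.36, adjusted p = 0.00198). Fbxo15, an F-box gene with an enhancer bound by both factors, changed by -2.63 in WT (adjusted p = 0.000926) and by -2.84 in 58 kb KO (adjusted p = 0.00198). Zfp42, the ES cell marker Rex1, changed by -2.38 in WT (adjusted p = 0.00324) and by -1.66 in 58 kb KO (adjusted p = 0.0184). Fgf4, whose enhancer holds the textbook site shared by OCT4 and SOX2, changed by -2.01 in WT (adjusted p = 0.00350) and by -1.51 in 58 kb KO (adjusted p = 0.0156). Fgf4 reached 1 FPKM only in day 2 libraries, so it entered the test through the day at which it was higher. In the knockout the call of Zfp42 was lost without the day 4 library of KO-i (adjusted p = 0.0859), and that of Fgf4 without that library (0.0719) or the day 2 library of KO-j (-1.09, adjusted p = 0.0570).

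The list of formative and primed epiblast genes was mixed. Of 18 tested, 12 fell and 4 rose in WT, and 8 fell and 2 rose in 58 kb KO, with medians of -0.97 and -0.52. The 3 with the smallest p in WT were Cdh2, Nodal and Etv5, and the first of them rose. Cdh2 encodes N-cadherin, an adhesion protein also of neural and mesodermal cells. It went from 6.69 and 6.06 to 28.5 and 30.7 FPKM in WT (2.05, limma adjusted p = 0.000472), and changed by 1.18 in 58 kb KO (adjusted p = 0.00577). Nodal, a TGF-beta ligand of the epiblast, changed by -2.78 in WT (adjusted p = 0.00103) and by -2.12 in 58 kb KO (adjusted p = 0.00558). Etv5, an ETS factor downstream of FGF signalling, changed by -2.62 in WT (adjusted p = 0.00160) and by -2.64 in 58 kb KO (adjusted p = 0.00346).

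Of 11 paralogues of the members that were tested, 2 fell and 1 rose in WT, and 1 fell and 0 rose in 58 kb KO, with medians of -0.18 and -0.12. Fgf4 is the one that fell in both, and it entered the test through day 2, at which it was higher. Sox3, the X-linked relative of Sox2, fell in WT (-0.82, limma adjusted p = 0.0200), and in 58 kb KO its value was -0.12 (adjusted p = 0.709). Pou3f3, a relative of Pou3f1, rose in WT (1.05, adjusted p = 0.0202) from 0.540 and 0.585 to 1.59 and 3.06 FPKM, and its value in 58 kb KO was -0.09 (adjusted p = 0.838). Only its WT day 4 libraries reached 1 FPKM, so Pou3f3 entered the test through the group in which it was high. The call of Sox3 in WT was lost without the day 2 or the day 4 library of WT-1 (adjusted p = 0.113 and 0.106) and without the day 4 library of WT-2 (0.0713). That of Pou3f3 was lost without the day 2 library of WT-1 or WT-2 (0.0938 and 0.0912). The differences between the genotypes in these changes did not pass (adjusted p = 0.866 and 0.777).

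**Figure D4:**
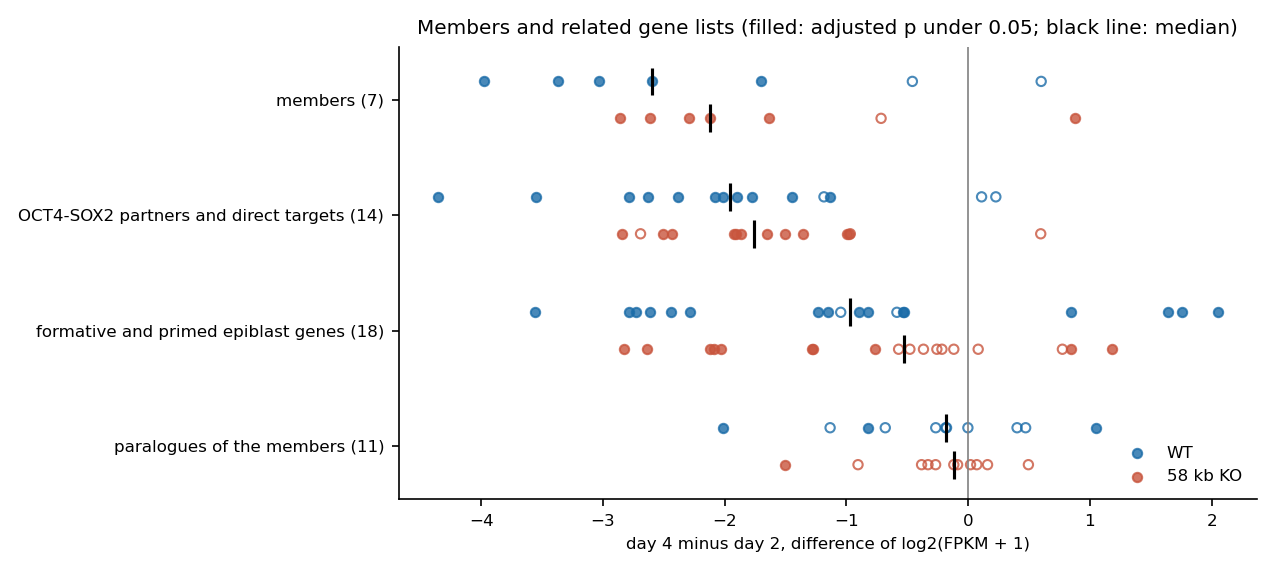
Change from day 2 to day 4 of RA, as a difference of log2(FPKM + 1), for each tested gene of the members and of 3 related lists (number of genes in brackets), in WT (blue) and 58 kb KO (red); filled points have a limma adjusted p under 0.05 and black lines are medians. Members and partners of OCT4 and SOX2 lie mostly below 0, while the paralogues lie around it.

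Without RA, after LIF withdrawal, the members kept another order. Pou5f1 was still abundant at day 6, Sox2, Utf1 and Tcf15 were low from day 4 on, and the primed epiblast genes Fgf5, Otx2 and Pou3f1 were highest in between. These columns are the authors' means or single libraries, so they are given with no error and no test, and the lines that make up the means differ between days. A gene is counted as higher or lower by at least 1 log2 unit of log2(FPKM + 1) against day 0.

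Pou5f1 was listed at 997 FPKM at day 0, 885 at day 2, 579 at day 4 and 177 at day 6. It was the most abundant member in each of these columns, and 17.7% of its day 0 level was left at day 6. Sall4 was listed at 49.8 FPKM at day 0 and at 43.5, 28.7 and 26.8 at days 2, 4 and 6. At day 2 the share of the day 0 level was 88.7% for Pou5f1 and 87.3% for Sall4.

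Sox2 stood at 152 FPKM at day 0, 52.8 at day 2, 13.6 at day 4 and 17.2 at day 6. Utf1 stood at 137, 85.4, 10.3 and 11.0 FPKM at the same days, and Tcf15 at 38.7, 19.0, 4.19 and 3.13. At day 2 Sox2 was the 1 member lower by at least 1 log2 unit, against 5.99% of all genes compared. At day 4, 3 members were (Sox2, Utf1 and Tcf15), against 10.1%. At day 6, 4 members were (Pou5f1, Sox2, Utf1 and Tcf15), against 8.02% of all genes.

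Fgf5 went from 1.18 FPKM at day 0 to 19.5 at day 2 and 28.4 at day 4, and stood at 4.15 at day 6. Otx2 went from 4.65 to 15.6 FPKM at day 2 and 12.3 at day 4, and was at 2.68 at day 6. Pou3f1 was highest at day 2, with 21.8 FPKM against 4.58 at day 0, 6.54 at day 4 and 5.25 at day 6. These 3 were the members higher by at least 1 log2 unit at day 2, against 5.41% of all genes. At day 4 they were Fgf5 and Otx2, against 7.66%, and at day 6 Fgf5 alone, against 13.1%. Their peaks differed in time, with Pou3f1 and Otx2 highest at day 2 and Fgf5 at day 4 among these 4 columns.

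**Figure D5:**
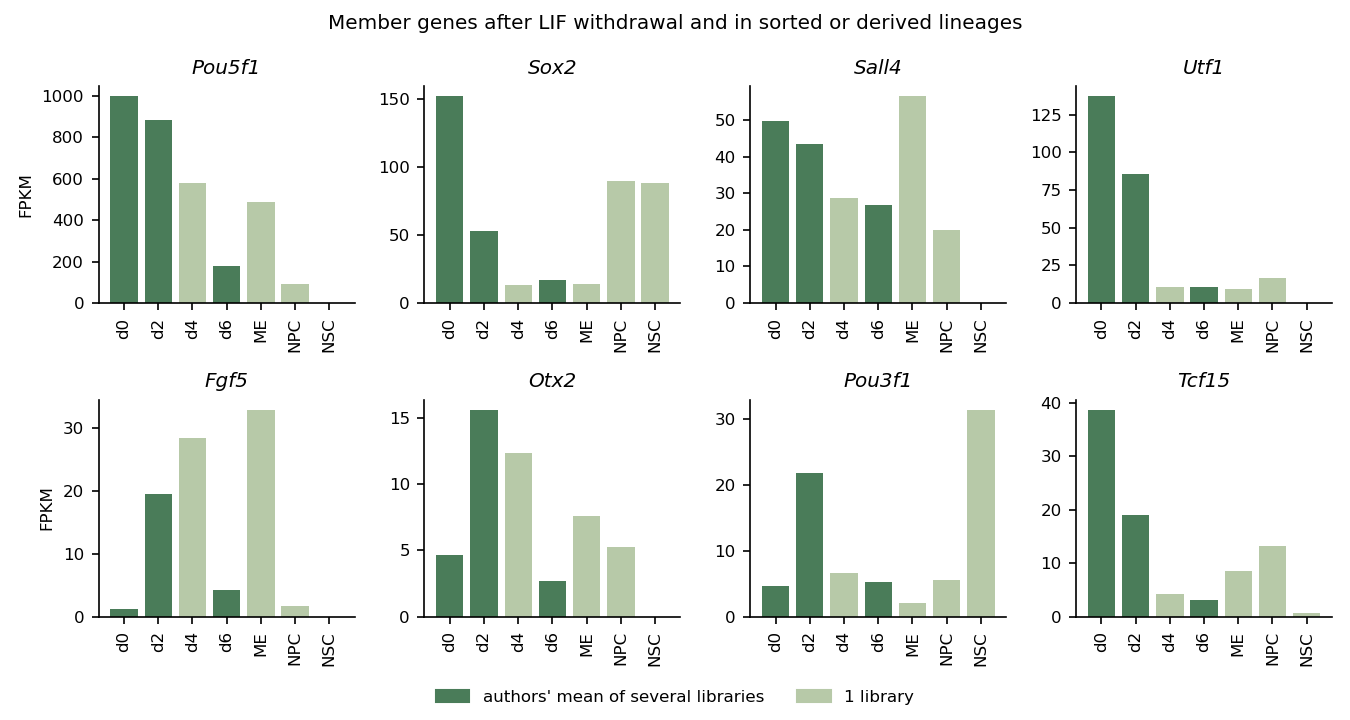
Level of each member in FPKM (vertical axes from 0, one scale per gene) at days 0 to 6 of LIF withdrawal (d0 to d6) and in ME, NPC and NSC; dark bars are the authors' means of several libraries and light bars are single libraries, with no error. Fgf5 and Otx2 are low at day 0 and high at days 2 and 4, and Sox2 and Pou3f1 are the members at a high level in NSC.

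In the sorted and derived lineages the members parted by tissue. The marker lists followed the labels: the 6 mesendoderm markers summed to 464 FPKM in ME and 1.25 in NPC, and the 8 neural progenitor markers to 376 in NPC, 586 in NSC and 67.9 in ME. The reporter gene of the NPC sort, Sox1, stood at 21.8 FPKM in NPC and 0.910 in NSC. That of the ME sort, T, stood at 192 FPKM in ME and 204 in the unsorted cells of day 4 without LIF. In ME, Pou5f1 stood at 486 FPKM, Sall4 at 56.5 and Fgf5 at 32.9, the last 2 at their highest of the 7 columns, while Pou5f1 was at 48.7% of its day 0 level. Fgf5 was the 1 member higher in ME than at day 0 by at least 1 log2 unit, against 10.7% of all genes. Lower by that much were 4 members (Pou5f1, Sox2, Utf1 and Tcf15), against 12.4% of all genes. Sox2 at 13.8 FPKM, Utf1 at 9.15 and Tcf15 at 8.51 were low in ME, as they were at day 4. Otx2 stood at 7.57 FPKM and Pou3f1 at 2.11, its lowest of the 7 columns.

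In NPC, Sox2 stood at 89.5 FPKM and Pou5f1 at 91.0, a level that is 9.13% of its day 0 level. Sall4 stood at 20.1 FPKM, Utf1 at 16.4, Tcf15 at 13.2, Pou3f1 at 5.49, Otx2 at 5.23 and Fgf5 at 1.69. Lower than at day 0 by at least 1 log2 unit were 4 members (Pou5f1, Sall4, Utf1 and Tcf15), against 13.1% of all genes, and 0 were higher, against 16.4%. The library thus still held sizeable Pou5f1, together with a summed level of 32.7 FPKM for the 9 naive markers, whose part was not tested.

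In NSC, 2 members with known roles in neural cells were at a high level. Sox2 stood at 88.1 FPKM and Pou3f1 at 31.4, its highest of the 7 columns. All members but Sox2 and Pou3f1 were lower than at day 0 by at least 1 log2 unit, 6 of 8 members, against 18.2% of all genes, and Pou3f1 was the 1 that was higher, against 22.7%. Pou5f1 stood at 0.391 FPKM, Tcf15 at 0.588, Sall4 at 0.0361 and Utf1 at 0.0316, and Fgf5 and Otx2 were listed at 0. The naive markers summed to 4.11 FPKM there.

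How alike the members ran can be read from Pearson correlations of log2(FPKM + 1), given as a description since the points share libraries and days. Over the 8 RA libraries Pou5f1 ran with Sox2 at r = 0.986, with Utf1 at 0.978, with Tcf15 at 0.969 and with Pou3f1 at 0.952. It ran with Sall4 at 0.793 and with Fgf5 at -0.766. Over the 7 columns of the other table Pou5f1 ran with Sall4 at 0.974 and with Otx2 at 0.888, but with Sox2 at -0.282 and with Pou3f1 at -0.576. Sox2 and Pou3f1, both high in NSC, are the members whose course there was least like that of Pou5f1.

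Among named genes reaching 5 FPKM in a column, the gene most like each member over the 8 RA libraries was Stmn2 for Pou5f1 (r = 0.998), Lrp11 for Sox2 (0.999), Ptgr1 for Sall4 (0.976), Sept1 for Utf1 (0.998), Nlrp1a for Pou3f1 (0.994) and Spry4 for Tcf15 (0.998). Next came Grhl3 for Pou5f1 (0.994), Fkbp4 for Sox2 (0.998), Rsf1 for Sall4 (0.951), Trap1 for Utf1 (0.997), Slc2a1 for Pou3f1 (0.994) and Col13a1 for Tcf15 (0.996). Fgf5 and Otx2 did not reach 5 FPKM under RA. The genes most like them, Rab14 (0.983) and Asph (0.979) for Fgf5 and Ankrd27 (0.970) and Pmepa1 (0.964) for Otx2, rest on values near 0. Spry4, a feedback inhibitor of FGF signalling, is also on the list of formative and primed epiblast genes.

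Over the 7 columns of the LIF and lineage table the most alike were L1td1 for Pou5f1 (0.996), Ccna2 for Sox2 (0.993), Dnajc2 for Sall4 (0.997), Akr1b8 for Utf1 (0.984), Ppp4r4 for Fgf5 (0.986), Smek1 for Otx2 (0.991), Bicd1 for Pou3f1 (0.965) and Pole2 for Tcf15 (0.985). Next came Nop14 for Pou5f1 (0.994), Rps14 for Sox2 (0.991), Nfkbib for Sall4 (0.996), Timm23 for Utf1 (0.984), Rxrg for Fgf5 (0.975), Pim2 for Otx2 (0.991), Uprt for Pou3f1 (0.960) and Rad1 for Tcf15 (0.979). L1td1, an RNA-binding protein of pluripotent cells, is on the list of partners and targets of OCT4 and SOX2, and fell under RA as well, with a change of -1.78 in WT and -1.92 in 58 kb KO.

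The levels of the 2 tables were normalized separately and are not compared directly. Set side by side, each in its own table, day 4 held 15.8% of the day 2 level of Pou5f1 under RA in WT and 22.2% in 58 kb KO. Without LIF, 58.1% of the day 0 level was left at day 4. That is another interval, since the RA libraries start at day 2. From day 2 to day 4 without LIF, Pou5f1 went from 885 to 579 FPKM. Fgf5 and Otx2 were at most 1.405 and 0.441 FPKM in any RA library. During LIF withdrawal their highest values were 28.4 and 15.6 FPKM, on the separately normalized scale of that table. Whether the routes differ was not tested, since they differ in medium, line, library kit and table.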

How the data were processed

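RNA (mRNA selected on beads, per the labels' protocols) was sequenced; 20 of the 54 samples enter the 2 tables used, and 34 were not analysed here. The values the authors deposited are FPKM, judged from the values since no header names the unit; the program behind them: not given in the sources used here. Tools are named without roles: TopHat2 2.0.11, Bowtie 1.0.0, MACS 1.4.2 and CASAVA, with build mm9, per the submitters' processing notes. The kit of the LIF set kept strand and that of the RA set did not, per the labels' protocols. Entries whose symbol repeats, 11 in number, were dropped from the LIF and lineage table.

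From the deposited FPKM, the 15705 genes reaching 1 FPKM in 2 or more of the 8 RA libraries were put on the log2(FPKM + 1) scale, and limma 3.58.1 (R 4.3.3, intensity trend, 4 groups in 1 fit, 4 residual and 3.50 prior degrees of freedom) was fitted, with Benjamini-Hochberg adjustment over all genes and a threshold of 0.05. Intervals are 95%. The fit was tested on simulated data. The LIF and lineage columns were described without tests. Depth was estimated from the steps of low values. The LIF table's single blank value was skipped. Motifs were searched in the RefSeq promoter table (GRCm38.p6), all other coordinates being mm9 as listed, counted from 1. All 8 members are named; from each related list up to 4 genes with the smallest p in WT are named, except 1 that is not reported here, and for each member the 2 named genes with the highest correlation. The members and lists were chosen with earlier results of these data known. Alternatives tried were another pseudocount, filters, scalings, no trend, a replicate block, only the groups compared, and leaving out each library.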

Additional observations from a re-analysis of the deposited data

How the results depend on the processing

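The fall of Utf1, Pou3f1 and Tcf15 held its direction and its call in both genotypes under every alternative run, and that of Pou5f1 in WT did too. The number of genes changed in WT was 3973, and 1474 to 4282 with 1 library left out. In 58 kb KO it was 2802, and 1596 with no filter on low values, 757 with only the groups compared and 990 to 2156 with 1 library left out. Between genotypes 4 genes passed at day 2, against 7 with no filter, 0 with only the groups compared and 0 to 5 with 1 library left out. At day 4 it was 0, against 1 with a pseudocount of 0.1, 1 with no filter and 0 to 7 with 1 library left out. For the difference of the changes it was 0, against 5 with no filter, 1 with no trend and 0 to 1 with 1 library left out. No member was among them. The cause of these shifts was not tested, beyond fewer libraries or more genes in the fit, and the lowest count in WT came without the day 4 library of WT-2.

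In 58 kb KO the calls of Pou5f1 and Sox2 were lost with no filter (adjusted p = 0.0535 and 0.0636) and with only the groups compared (0.0669 and 0.0791). The call of Fgf5 was also lost with no filter (0.0543) and with only the groups compared (0.0934). Fgf5 has no value under the filter of 5 FPKM. Signs turned for small values. With median ratio scaling the difference between genotypes was -0.038 for Sall4 at day 2 and -0.0092 for Tcf15 at day 4. With a pseudocount of 0.1 it was 0.0064 for Fgf5 at day 4. With quantile normalization the change of Pou3f3 in 58 kb KO was 0.045.

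With 1 library left out, the difference between genotypes ranged at day 2 from -0.23 to 0.26 for Sall4, and at day 4 from -0.87 to 0.21 for Pou5f1, from -0.83 to 0.25 for Sox2, from -0.55 to 0.069 for Sall4, from -0.16 to 0.33 for Utf1, from -0.23 to 0.21 for Fgf5, from -0.017 to 0.21 for Pou3f1 and from -0.14 to 0.19 for Tcf15. The difference of the changes ranged from -0.061 to 1.02 for Pou5f1, from -0.48 to 0.61 for Sox2 and from -0.56 to 0.051 for Sall4. The change of Sox3 in 58 kb KO ranged from -0.34 to 0.11.

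Libraries that share a name share it across days, but the labels do not say that the name pairs them. Deviations from the group means correlated at 0.085 in WT and 0.26 in 58 kb KO. With a replicate block on the name 4783 genes changed in WT, 3705 in 58 kb KO and 0 differed in their change, and no call of a member was altered.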
